A study of Mus musculus with 2 samples.

Results

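Neutrophils carry antimicrobial and matrix-degrading proteins in granules, and 10 genes of such proteins were followed in immune cells of mouse pancreatic tumors. The genes were a given list matched by symbol, with no measured value in the rule itself, although the list was drawn up with earlier results of these data known, and all 10 were found among the 32285 genes listed in both libraries. Elane, Mpo, Prtn3 and Ctsg stood for the primary (azurophil) granules, Ltf, Camp, Ngp, Lcn2 and Mmp8 for the secondary (specific) granules, and Mmp9 for the tertiary (gelatinase) granules.

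The tumors were grown orthotopically in male C57BL/6J mice, 5 to 6 weeks old when obtained, from K210 cells. K210 is a line isolated from spontaneous pancreatic ductal adenocarcinoma of engineered mice that carried floxed Trp53 (fl/fl), with Cre driven by the Pdx1 promoter of the pancreas, whereas the immune cells came from the C57BL/6J hosts. One library came from PBS-treated mice, the control, and the other from mice that received cmExoaCD11b, exosomes of mouse embryonic fibroblasts that carried IL-12 mRNA, the STING agonist cGAMP (5 µg per mouse) and an antibody against CD11b. Each library was a pool of 3 mice, taken 48 h after treatment and sequenced from the 3′ ends of transcripts (10x Genomics). With 1 library per treatment no test between treatments was possible, and every interval given here is a 95% interval for counting error only.

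Granule proteins are made in waves while a neutrophil matures. Promyelocytes make the serine proteases and the peroxidase of primary granules, myelocytes and metamyelocytes then make the proteins of secondary granules, and the gelatinases follow in later, non-dividing cells. The finished proteins stay in the granules after transcription has ended, so a transcript marks the stage of synthesis rather than the content of a cell. Dividing granulocyte precursors are best known from bone marrow.

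The libraries held 67143628 and 81288480 unique molecular identifiers (UMIs, counts of single transcripts), of which 50650189 and 61937156 lay in 6835 PBS cells and 7075 cmExoaCD11b cells. These cells had medians of 3471 and 4103 UMIs, and 16 barcodes occurred in both libraries (0.234% and 0.226% of the cells). Neutrophils were gated by UMIs of 10 lineage genes against markers of other cell types, which gave 4749 PBS cells (69.5%) and 4507 cmExoaCD11b cells (63.7%). None of the 10 granule genes was used in any gate. S100a8, a calcium-binding protein abundant in neutrophils, was at 74078 CPM (UMIs per 1000000 UMIs, summed over the cells of a stage) in dividing precursors and 57360.2 CPM in mature cells of PBS. Csf3r, the receptor of G-CSF, was at only 92.9 CPM in dividing precursors of PBS, against 1179.7 CPM in mature cells. Both are gate genes, so their levels describe the gated cells and do not check the label. Itgam, which encodes CD11b of neutrophils and other myeloid cells and was in no gate, was at 264 CPM in PBS and 322 CPM in cmExoaCD11b in dividing precursors and 501 CPM in PBS and 347 CPM in cmExoaCD11b in mature cells.

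Stages were set by UMIs of 4 further lists. Dividing precursors had at least 10 UMIs of 12 division genes and at least 20 of 5 immature genes (Fcnb, Chil3, Cd177, Itgb2l and Ms4a3). Non-dividing immature cells had under 3 division UMIs and at least 20 immature UMIs. Mature cells had at least 20 UMIs of 5 mature genes such as Retnlg, Stfa2l1 and Ifitm6, with under 5 immature and under 3 division UMIs and under 20 UMIs of 8 activation genes such as Ccl3, Ptgs2 and Vegfa. Activated cells had at least 20 UMIs of the activation genes and under 20 of the mature genes, and mature activated cells met both thresholds.

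Dividing precursors numbered 440 cells (9.27%, 8.46 to 10.1%) in PBS and 752 cells (16.7%, 15.6 to 17.8%) in cmExoaCD11b, a ratio of shares of 1.80 (1.60 to 2.03). Non-dividing immature cells numbered 537 cells (11.3%, 10.4 to 12.2%) and 839 cells (18.6%, 17.5 to 19.8%), a ratio of 1.65 (1.48 to 1.84). Mature cells were also a larger part of the cmExoaCD11b neutrophils, with 322 cells (6.78%, 6.08 to 7.53%) in PBS and 481 cells (10.7%, 9.79 to 11.6%) in cmExoaCD11b. Mature activated cells were close in share, with 278 cells (5.85%, 5.20 to 6.56%) and 256 cells (5.68%, 5.02 to 6.40%), a ratio of 0.97 (0.816 to 1.15). Activated cells went the other way, with 1673 cells (35.2%, 33.9 to 36.6%) in PBS and 664 cells (14.7%, 13.7 to 15.8%) in cmExoaCD11b, a ratio of 0.418 (0.382 to 0.458). A further 31.6% and 33.6% fell into no stage. Dividing precursors held 35.8% of the neutrophil UMIs in PBS and 47.7% in cmExoaCD11b, with medians of 26296 and 25119.5 UMIs per cell. Activated cells had medians of 3025 and 2768 UMIs, and a fixed UMI threshold is met more easily by a deep cell. When only the deepest barcodes were taken as cells (the ranked-UMI cut-off alone), the share ratio of dividing precursors was 1.24 instead of 1.80.

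**Figure D1:**
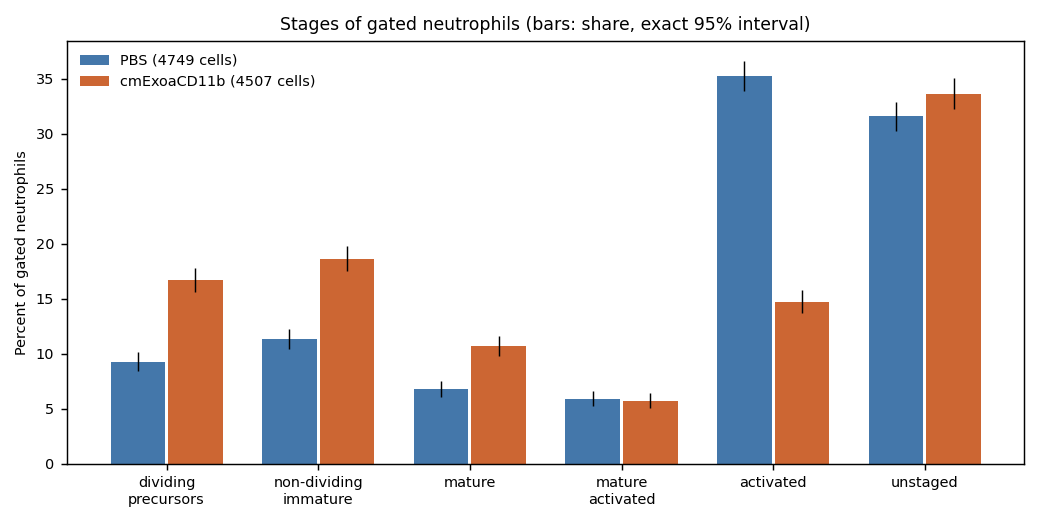
Share of gated neutrophils (percent, y axis) in each maturation stage (x axis) for the PBS library (4749 cells) and the cmExoaCD11b library (4507 cells), with exact 95% binomial intervals. Dividing precursors stood at 9.27% in PBS and 16.7% in cmExoaCD11b, and activated cells at 35.2% and 14.7%.

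Granule transcripts were also present as free RNA, and this sets a floor for low values. Droplets with at most 100 UMIs, taken as empty, held Camp at 12050.4 CPM in PBS and 13368 CPM in cmExoaCD11b. T cells, which do not make these proteins, were gated as a yardstick (281 and 626 cells, medians of 4771 and 3826 UMIs) and held Camp at 295 CPM in PBS and 399.5 CPM in cmExoaCD11b. S100a8 and S100a9 in these T cells put the share of free RNA at 2.54% in PBS and 2.79% in cmExoaCD11b, and the gate, which required under 3 UMIs of the other lineage genes, may hold this estimate low. Levels near those of the T cells are read below as background. The floor was not adjusted for depth, and free RNA spread evenly over droplets would give a lower CPM in deeper cells. Non-dividing immature cells were deeper than T cells, with medians of 13922 UMIs in PBS and 11806 UMIs in cmExoaCD11b. Activated cells were shallower, with medians of 3025 and 2768 UMIs.

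The primary granule genes were high in dividing precursors alone among the stages. Within that stage, cells rich in primary but not in secondary genes had the least Mki67 per UMI, as given below. Elane, the neutrophil elastase, was at 3213 CPM (3181 to 3244) in dividing precursors of PBS and 3678 CPM (3652 to 3703) in those of cmExoaCD11b. From dividing precursors through non-dividing immature, mature and mature activated to activated cells, its levels ran 3213, 11.9, 33.8, 27.4 and 30.2 CPM in PBS. The same order of stages gave 3678, 19.9, 46.3, 40.3 and 50.7 CPM in cmExoaCD11b. T cells had 21.9 CPM in PBS and 40.8 CPM in cmExoaCD11b, so Elane lay near or under the T-cell CPM in every later stage of both libraries. Elane had 94 UMIs in 537 non-dividing immature cells of PBS and 225 in 839 of cmExoaCD11b. T cells had 33 UMIs in 281 cells and 109 in 626 cells. Whether the deeper non-dividing immature cells held a low level of Elane was not tested.

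Mpo, the myeloperoxidase that forms hypochlorous acid, ran 1361, 4.82, 13.1, 15.2 and 14.2 CPM in PBS and 1364, 7.97, 15.1, 14.0 and 23.7 CPM in cmExoaCD11b over the same stages. Ctsg, the protease cathepsin G, ran 1062, 2.79, 10.8, 7.62 and 12.2 CPM in PBS and 1193, 6.99, 12.4, 17.1 and 23.7 CPM in cmExoaCD11b. T cells had 9.30 CPM in PBS and 11.98 CPM in cmExoaCD11b of Mpo and 8.63 CPM in PBS and 12.4 CPM in cmExoaCD11b of Ctsg, and the later stages of neither gene exceeded 23.7 CPM. That level, in activated cells of cmExoaCD11b, had an interval of 17.5 to 31.3 CPM for both genes. It lay above the T-cell intervals of that library, 8.20 to 16.9 CPM for Mpo and 8.51 to 17.4 CPM for Ctsg. Both rest on 49 UMIs in 664 activated cells, against 32 UMIs of Mpo and 33 of Ctsg in 626 T cells. The activated cells were shallower, with a median of 2768 UMIs against 3826, and the part of depth in this difference was not tested.

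Prtn3, proteinase 3, ran 2735, 36.8, 36.1, 37.3 and 68.2 CPM in PBS and 3112, 41.0, 39.9, 35.7 and 75.4 CPM in cmExoaCD11b. Its later levels, 35.7 to 75.4 CPM, lay above the T-cell levels of 15.3 and 27.7 CPM. They were clear of counting error in activated cells, where the intervals were 61.6 to 75.3 CPM in PBS and 64.0 to 88.1 CPM in cmExoaCD11b. The same held in non-dividing immature cells, with intervals of 32.7 to 41.3 CPM in PBS and 37.3 to 44.9 CPM in cmExoaCD11b. Those of T cells were 9.68 to 22.9 CPM and 21.8 to 34.8 CPM. Cells gated as macrophages and monocytes held more Prtn3 than these later stages, at 240 CPM in PBS and 287 CPM in cmExoaCD11b. Their part in the later Prtn3 levels was not tested. Mature and non-dividing immature cells did not differ in Prtn3 beyond counting error, with ratios of non-dividing immature over mature of 1.02 (0.746 to 1.42) in PBS and 1.03 (0.803 to 1.33) in cmExoaCD11b.

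Summed over the 4 primary genes, dividing precursors were 148 (135 to 163) times as high as non-dividing immature cells in PBS and 123 (115 to 132) times in cmExoaCD11b. The geometric mean of both libraries was 135 (128 to 143). The lower side of this ratio lay near the T-cell level, and as a mean over cells of each cell's CPM the ratio was 80.5. After subtraction of the estimated free RNA no level of the primary genes was left in the non-dividing immature cells of cmExoaCD11b. The subtraction took the same share of UMIs at every depth, although these cells were deeper than T cells (medians of 11806 and 3826 UMIs). They held 857 primary UMIs in 839 cells, against 248 in 626 T cells, so the subtraction cannot show that no level was there. Before subtraction, the sum of the 4 primary genes in non-dividing immature cells was 56.4 CPM in PBS and 75.9 CPM in cmExoaCD11b, against 55.1 and 92.9 CPM in T cells. Of all UMIs of these genes in kept cells, dividing precursors held 93.8% for Elane, 89.0% for Mpo, 88.9% for Prtn3 and 88.6% for Ctsg in PBS, and 97.4%, 95.03%, 95.2% and 93.8% in cmExoaCD11b.

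**Figure D2:**
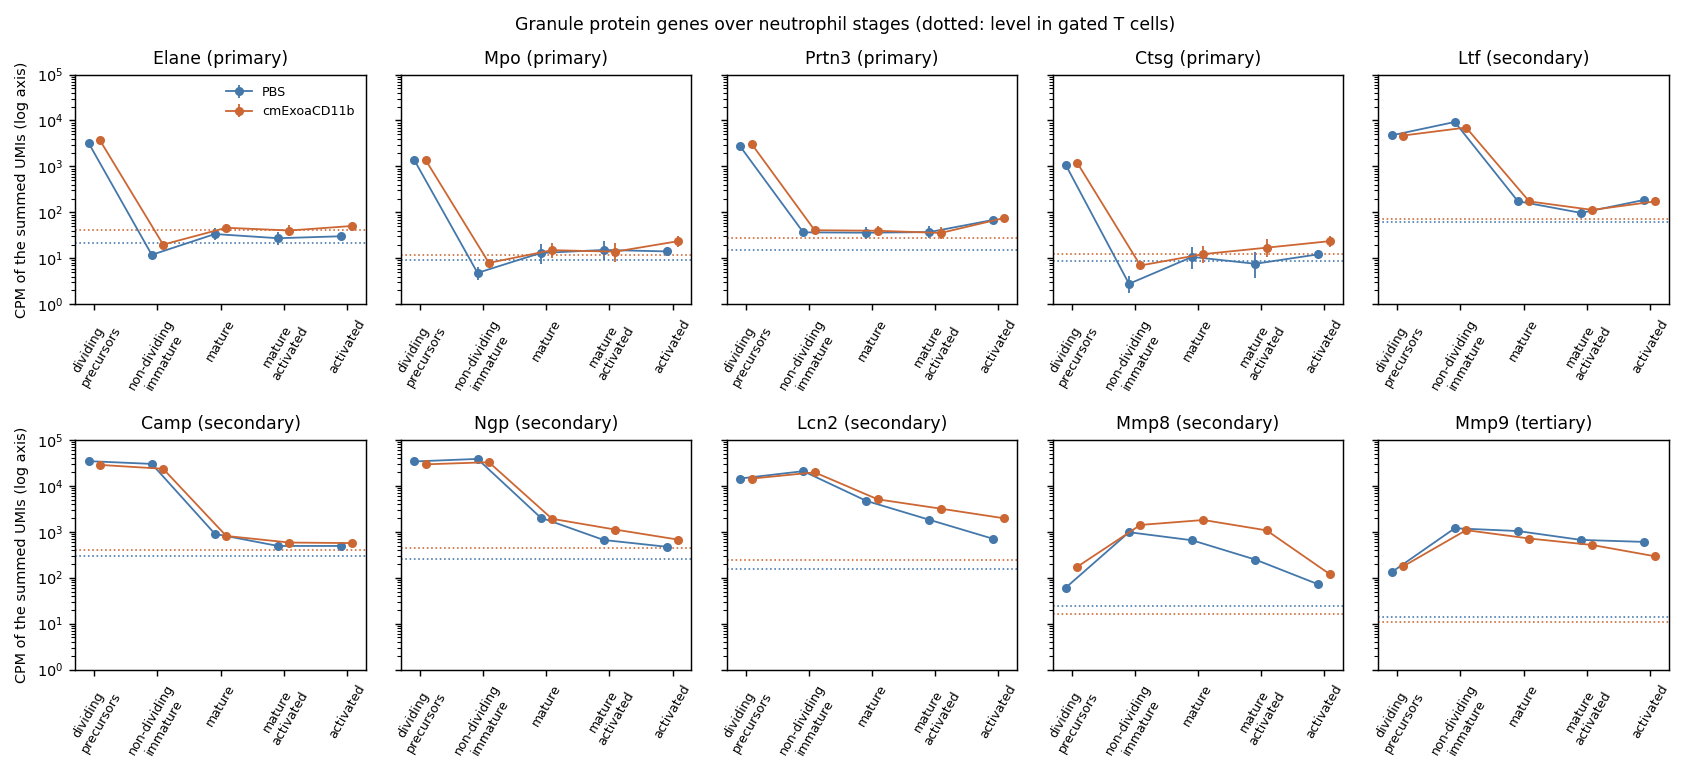
Level of each granule gene (CPM of the summed UMIs, log axis) over the 5 neutrophil stages (x axis) in PBS and cmExoaCD11b, with exact 95% Poisson intervals, and the level in gated T cells of each library as dotted lines. Elane, Mpo, Prtn3 and Ctsg stand high in dividing precursors only, Ltf, Camp, Ngp and Lcn2 in dividing precursors and non-dividing immature cells, Mmp8 in non-dividing immature, mature and mature activated cells, and Mmp9 in all 4 stages after the dividing precursors.

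The secondary granule genes Ltf, Camp, Ngp and Lcn2 were high in both immature stages and lower in mature cells. Camp, the cathelicidin precursor, ran 34383, 29936, 898, 491 and 491 CPM from dividing precursors to activated cells of PBS. In cmExoaCD11b the levels of Camp were 28465, 23452, 810.2, 582 and 567 CPM. Camp was the 1 of these 4 genes with a higher level in dividing precursors than in non-dividing immature cells, by 1.15 (1.14 to 1.15) times in PBS and 1.21 (1.21 to 1.22) times in cmExoaCD11b.

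Ngp, a cystatin-like neutrophilic granule protein, ran 33836, 38435, 2035, 661 and 471 CPM in PBS and 29290.5, 32613, 1915, 1116 and 673 CPM in cmExoaCD11b. Ltf, the iron-binding lactoferrin, ran 4742, 9281, 175, 97.5 and 187 CPM in PBS and 4704, 7021, 173, 113 and 174 CPM in cmExoaCD11b. Unlike Camp, Ltf was higher in non-dividing immature cells than in dividing precursors, by 1.96 (1.94 to 1.98) times in PBS and 1.49 (1.48 to 1.51) times in cmExoaCD11b.

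Lcn2, lipocalin 2, which binds bacterial siderophores, ran 14396, 20803, 4692, 1817 and 708 CPM in PBS and 14331, 19615, 5073, 3175 and 1965 CPM in cmExoaCD11b. Of these 4 genes it kept the greatest part of its level in mature cells. Non-dividing immature cells exceeded mature cells 52.9 (46.5 to 60.5) times for Ltf, 33.3 (31.5 to 35.3) times for Camp and 18.9 (18.2 to 19.6) times for Ngp in PBS, against 4.43 (4.32 to 4.55) times for Lcn2. In cmExoaCD11b the corresponding ratios were 40.5 (36.3 to 45.3) for Ltf, 28.9 (27.5 to 30.5) for Camp, 17.0 (16.5 to 17.6) for Ngp and 3.87 (3.79 to 3.95) for Lcn2. T cells had 60.4 CPM in PBS and 70.8 CPM in cmExoaCD11b of Ltf, against 97.5 to 187 CPM in mature activated and activated cells. In activated cells Camp and Ngp lay nearer to their T-cell levels, in proportion, than Ltf did. T cells had 295 and 399.5 CPM of Camp, against 491 and 567 CPM in activated cells. For Ngp they had 261 and 439 CPM, against 471 and 673 CPM. Free RNA may be a large part of these late levels of Ltf, Camp and Ngp. Lcn2 stood further above its T-cell levels of 155 and 244 CPM.

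Summed over the 5 secondary genes, non-dividing immature cells were 10.1 (9.94 to 10.2) times as high as mature cells (geometric mean of both libraries). The ratio was 6.13 with the ranked-UMI cut-off alone.

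Mmp8 and Mmp9 were low in dividing precursors and higher in non-dividing immature and mature cells, unlike the other 8 genes. Mmp8, the neutrophil collagenase, ran 61.1, 977, 652, 248 and 71.7 CPM in PBS, with its highest level in non-dividing immature cells. In cmExoaCD11b it ran 173, 1406, 1801, 1071 and 119.8 CPM, with its highest level in mature cells. Non-dividing immature cells over dividing precursors gave 16.0 (14.8 to 17.3) in PBS and 8.14 (7.85 to 8.43) in cmExoaCD11b, and mature over activated cells gave 9.10 (8.08 to 10.3) and 15.0 (13.2 to 17.2).

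Mmp9, gelatinase B, ran 132, 1191, 1036, 664 and 601 CPM in PBS and 176, 1083, 713, 514 and 291 CPM in cmExoaCD11b. It was highest in non-dividing immature cells of both libraries, by 9.04 (8.58 to 9.54) times over dividing precursors in PBS and 6.15 (5.94 to 6.38) times in cmExoaCD11b. Mature over non-dividing immature cells gave 0.757 (0.727 to 0.788) as the geometric mean, and it was 0.997 with doubled stage thresholds. Of the 6 genes that were high in non-dividing immature cells, Mmp9 kept the greatest part of that level in activated cells, where PBS had 601 CPM (581 to 622) against 13.9 CPM in T cells.

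Cells thinned to 1000 UMIs, which puts all stages at the same depth, showed the same sequence as shares of cells with a UMI. Elane was found in 27.7% of thinned dividing precursors, 0.56% of non-dividing immature cells and 3.24% of T cells in PBS, against 57.7%, 15.6% and 11.4% before thinning. Ltf was found in 77.5% of thinned dividing precursors, 92.0% of non-dividing immature, 9.63% of mature and 7.19% of T cells (91.4%, 95.9%, 29.8% and 26.7% before thinning). Mmp9 was found in 9.09%, 58.2%, 55.0% and 2.52% of the same 4 groups (49.1%, 93.1%, 84.5% and 7.12% before thinning). All but 1 of these non-dividing immature cells were deep enough to be thinned, as were 278 of the 281 T cells.

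The changes between stages were read against all other genes. Among genes with at least 50 UMIs over the compared cells, 28.6% were at least 2-fold higher in dividing precursors than in non-dividing immature cells in both libraries and 5.43% at least 2-fold lower. Of the 10 granule genes, 4 were higher (Elane, Mpo, Prtn3 and Ctsg) and 2 were lower (Mmp8 and Mmp9). From non-dividing immature to mature cells, 13.2% of genes were at least 2-fold higher in the immature cells and 6.43% lower. Of the granule genes 4 were higher (Ltf, Camp, Ngp and Lcn2) and 1 was lower (Elane, which was near or under the T-cell CPM in both stages).

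Within dividing precursors, cells with more of the primary genes tended to have less of Ltf, Camp, Ngp and Lcn2. Elane was concentrated in few dividing precursors: the top 10% of cells held 78.3% of the Elane UMIs of this stage in PBS and 76.6% in cmExoaCD11b, against 23.1% and 25.7% for Camp. Over the 440 PBS cells, Pearson correlations of log2(UMIs per 10000 + 1) were 0.813 to 0.95 among the 4 primary genes, 0.761 to 0.94 among Ltf, Camp, Ngp and Lcn2, and -0.842 to -0.522 between the groups. Over the 752 cmExoaCD11b cells the ranges were 0.796 to 0.938, 0.795 to 0.942 and -0.841 to -0.527. These correlations are descriptions over cells of 1 library, which share depth and a common total.

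With thresholds of 50 primary and 300 secondary UMIs per 10000, set after the distributions had been seen, most dividing precursors were secondary-only, namely 339 cells (77.0%, 72.8 to 80.9%) in PBS and 556 cells (73.9%, 70.6 to 77.0%) in cmExoaCD11b. Primary-only cells numbered 49 cells (11.1%, 8.35 to 14.5%) and 90 cells (11.97%, 9.73 to 14.5%). Cells above both thresholds numbered 33 cells (7.50%, 5.22 to 10.4%) and 74 cells (9.84%, 7.81 to 12.2%), and 19 cells (4.32%, 2.62 to 6.66%) and 32 cells (4.26%, 2.93 to 5.95%) were above neither. Cells above the primary threshold were thus often above the secondary one too, with 33 beside 49 primary-only cells in PBS and 74 beside 90 in cmExoaCD11b. The primary-only cells were the deepest, with medians of 40703 and 46992 UMIs, and the shares of the 4 kinds overlapped between the libraries in their counting intervals. Mki67, a gene of dividing cells, was lowest of the 4 kinds in primary-only cells, at 109 CPM in PBS and 187 CPM in cmExoaCD11b. Secondary-only cells had 298 and 383 CPM. A deep cell meets the threshold of 10 division UMIs more easily, and the part of depth in placing primary-only cells in this stage was not tested.

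**Figure D3:**
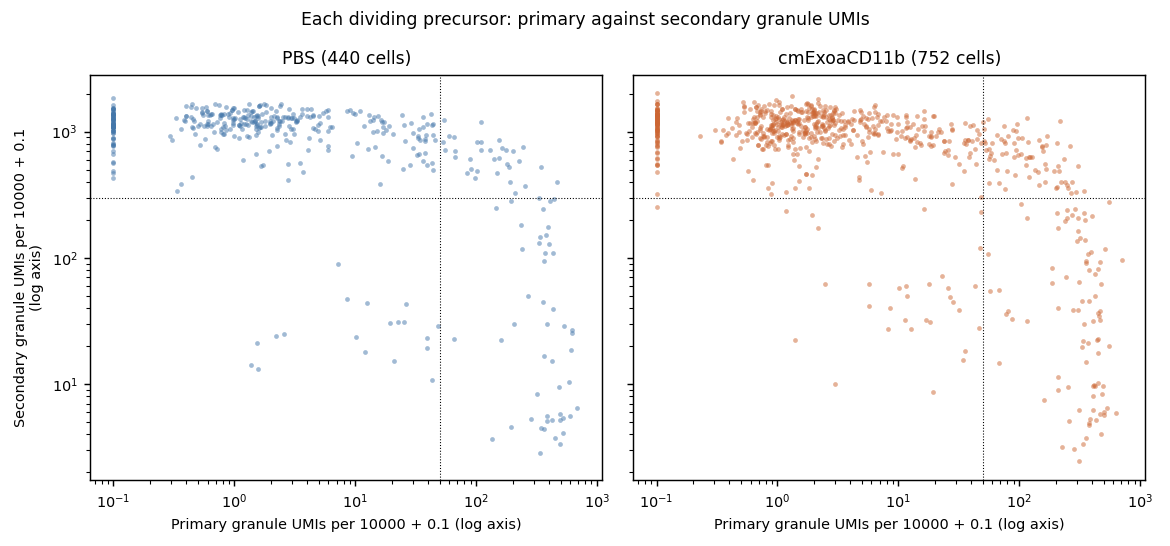
Primary granule UMIs (Elane, Mpo, Prtn3 and Ctsg, x axis) against secondary granule UMIs (Ltf, Camp, Ngp, Lcn2 and Mmp8, y axis) per 10000 UMIs of each dividing precursor, both on log axes after adding 0.1, for 440 PBS cells and 752 cmExoaCD11b cells. Dotted lines mark 50 primary and 300 secondary UMIs per 10000, and most cells lie in the upper left field (77.0% and 73.9%).

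Dividing precursors were further ordered by Ms4a3, a membrane protein of early granulocyte and monocyte progenitors that was part of the immature list. Bins of under 1, 1 to under 5, 5 to under 10, and 10 or more Ms4a3 UMIs per 10000 held 161, 173, 44 and 62 cells in PBS and 283, 277, 81 and 111 cells in cmExoaCD11b. From the lowest to the highest bin, Elane ran 54.8, 271, 2271 and 14021 CPM in PBS and 26.6, 416, 2761 and 12983 CPM in cmExoaCD11b. Ctsg, at 8.01, 20.2, 195 and 5133 CPM in PBS, had the steepest last step of the 4 primary genes, and Prtn3, at 154, 452, 2504 and 11002 CPM, the least steep.

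The secondary genes and Mmp9 were lowest in the bin with the most Ms4a3, where the primary genes were highest. Ltf ran 6877, 6431, 2065 and 105 CPM in PBS and 7142, 6532, 2919 and 201 CPM in cmExoaCD11b. Camp ran 35650.3, 45155, 41046 and 8248 CPM in PBS and 33047, 36702, 32961 and 9277 CPM in cmExoaCD11b, so that only its highest bin stood apart. Mmp9 was highest in the bin with least Ms4a3, with 331, 66.1, 34.7 and 15.3 CPM in PBS and 388, 164, 38.1 and 14.3 CPM in cmExoaCD11b. The order given by Ms4a3 is an order of cells, not of time.

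**Figure D4:**
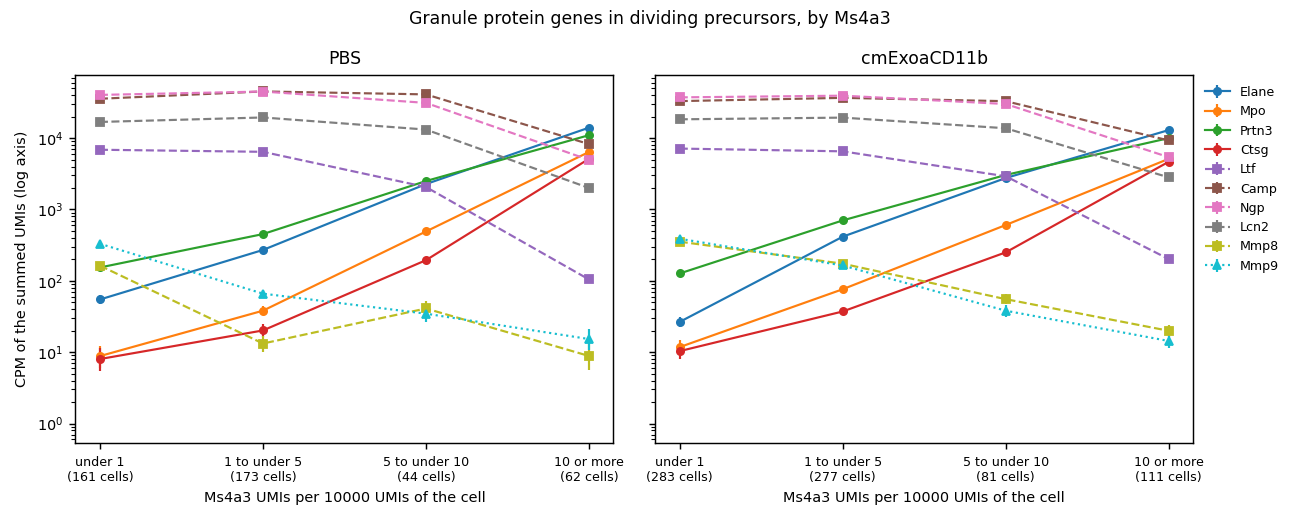
Level of the 10 granule genes (CPM of the summed UMIs, log axis) in dividing precursors binned by Ms4a3 UMIs per 10000 (x axis, with the number of cells), for PBS and cmExoaCD11b, with exact 95% Poisson intervals. The 4 primary genes (circles) climb toward the bin of 10 or more, where Elane reaches 14021 and 12983 CPM, and the secondary genes Ltf, Camp, Ngp and Lcn2 (squares) are lowest there.

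Since the primary genes moved together, and Ltf, Camp, Ngp and Lcn2 moved together, the 250 bases before the transcription start were read for 9 of the 10 genes. They came from RefSeq (GRCm38.p6), and the build behind the counts is not given in the sources used here. No promoter of Mmp9 was read. Elane and Prtn3 are neighbors on chromosome 10 with 0 protein-coding genes between them, whereas 8 such genes lie between Camp and Ngp and 20 between Ngp and Ltf on chromosome 9. The motifs searched on both strands were TTNNGNAA for the C/EBP family (with N for any base) and AGGAAG for the ETS family, to which Spi1 belongs, and no match of the first overlapped a match of the second. Promoters of 2 primary and 2 secondary genes are shown 5′ to 3′ on the strand of the gene, with matches in capitals, because the primary ones hold ETS letters and no C/EBP letters, and Ltf and Ngp the C/EBP letters.
Prtn3 (chr10:79879417-79879666, plus strand): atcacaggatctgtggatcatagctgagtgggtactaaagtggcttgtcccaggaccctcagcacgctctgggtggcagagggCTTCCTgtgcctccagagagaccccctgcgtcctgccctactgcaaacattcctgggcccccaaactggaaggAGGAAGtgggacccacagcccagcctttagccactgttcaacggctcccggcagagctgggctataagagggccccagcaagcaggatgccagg
Ctsg (chr14:56102575-56102824, minus strand): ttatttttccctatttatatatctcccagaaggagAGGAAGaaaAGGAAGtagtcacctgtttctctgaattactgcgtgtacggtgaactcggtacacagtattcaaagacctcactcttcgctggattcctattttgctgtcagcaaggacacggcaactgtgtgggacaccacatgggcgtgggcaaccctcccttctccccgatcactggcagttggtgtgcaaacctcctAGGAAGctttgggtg
Ltf (chr9:111019042-111019291, plus strand): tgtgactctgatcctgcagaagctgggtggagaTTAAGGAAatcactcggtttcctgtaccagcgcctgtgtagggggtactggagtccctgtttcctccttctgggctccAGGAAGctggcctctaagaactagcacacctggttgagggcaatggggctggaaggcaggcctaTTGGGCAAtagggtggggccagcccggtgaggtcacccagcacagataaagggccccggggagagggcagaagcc
Ngp (chr9:110419558-110419807, plus strand): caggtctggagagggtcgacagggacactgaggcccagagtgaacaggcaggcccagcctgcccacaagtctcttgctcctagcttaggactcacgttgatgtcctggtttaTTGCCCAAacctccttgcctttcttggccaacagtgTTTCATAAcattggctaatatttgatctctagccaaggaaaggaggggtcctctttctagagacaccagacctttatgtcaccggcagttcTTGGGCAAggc
The C/EBP letters stood in 4 of 5 secondary windows (Ltf, Ngp, Lcn2 and Mmp8) and in 0 of 4 primary windows, against 36.8% of 32536 windows of the same length. Mmp8 did not move with the other secondary genes, and Camp, which moved with Ltf, Ngp and Lcn2, had no such match. The ETS letters stood in 4 of 4 primary and 4 of 5 secondary windows (all but Ngp), against 29.6% of windows. These are matches of letters, not binding sites, and a window without a match says nothing of the factor.

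Between the treatments, all gated neutrophils were compared first, where a difference in stages also moves the levels. Summed over the class, the primary genes were at 3114 CPM in PBS and 4560.1 CPM in cmExoaCD11b, a ratio of 1.46 (1.45 to 1.48). Weighted to the PBS share of neutrophil UMIs in each stage, such as 35.8% for dividing precursors, and not to the shares of cells, the ratio was 1.11 (1.11 to 1.12). It was 0.923 when only neutrophils with 0 macrophage and monocyte UMIs were counted.

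The secondary genes were at 60244 CPM in PBS and 65009 CPM in cmExoaCD11b, a ratio of 1.08 (1.08 to 1.08) over summed UMIs. As a mean over cells, which weights shallow and deep cells equally, the ratio was 1.53, and with the ranked-UMI cut-off alone it was 0.924. Weighted to the PBS share of UMIs in each stage it was 0.916 (0.914 to 0.917) over summed UMIs. Mmp9 was at 683 CPM in PBS and 506 CPM in cmExoaCD11b, a ratio of 0.741 (0.727 to 0.754), and weighted to the PBS shares of UMIs it was 0.745 (0.731 to 0.76). None of the 10 genes was at least 2-fold different over all gated neutrophils, where 3.02% of 12182 genes were at least 2-fold higher in cmExoaCD11b and 3.89% at least 2-fold lower. Single-gene ratios ranged from 0.741 for Mmp9 to 1.78 for Mmp8, with a median of 1.25 over the 10 genes and 1.10 over all genes.

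Within dividing precursors the treatments were close for most of the genes. Elane had a ratio of cmExoaCD11b over PBS of 1.14 (1.13 to 1.16), Mpo of 1.00 (0.984 to 1.02) and Prtn3 of 1.14 (1.12 to 1.15). Ctsg had 1.12 (1.10 to 1.15), which turned to 0.722 in cells with 0 macrophage and monocyte UMIs, where Prtn3 turned to 0.937. A cut at 0 UMIs is met less easily by a deep cell. These markers summed to 136 CPM in PBS and 76.0 CPM in cmExoaCD11b in this stage. Camp was lower in cmExoaCD11b, at 0.828 (0.825 to 0.831), as was Ngp, at 0.866 (0.862 to 0.869), whereas Ltf, at 0.992 (0.982 to 1.00), and Lcn2, at 0.996 (0.99 to 1.00), did not differ beyond counting error. Mmp9 was higher in cmExoaCD11b in this stage, at 132 CPM in PBS and 176 CPM in cmExoaCD11b, a ratio of 1.34 (1.26 to 1.42). Mmp8 differed most, at 61.1 CPM in PBS and 173 CPM in cmExoaCD11b, a ratio of 2.83 (2.62 to 3.07). It was the 1 granule gene at least 2-fold higher in this stage, where 2.9% of genes were 2-fold higher and 0.838% 2-fold lower.

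In non-dividing immature cells Ltf had a ratio of 0.757 (0.749 to 0.764), Camp of 0.783 (0.779 to 0.788) and Ngp of 0.849 (0.844 to 0.853), all lower in cmExoaCD11b. Lcn2, at 0.943 (0.937 to 0.949), and Mmp9, at 0.909 (0.885 to 0.934), differed less, and Mmp8, at 1.44 (1.40 to 1.48), was higher. Of the 10 genes only Ctsg passed 2-fold (2.79 and 6.99 CPM), on 22 and 79 UMIs. Both its levels were under those of the shallower T cells, so this ratio is not read further. In this stage 4.78% of genes were 2-fold higher and 1.28% 2-fold lower.

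In mature cells Mmp8 was at 652 CPM in PBS and 1801 CPM in cmExoaCD11b, a ratio of 2.76 (2.56 to 2.98). In mature activated cells it was at 248 CPM in PBS and 1071 CPM in cmExoaCD11b, a ratio of 4.31 (3.82 to 4.88) and the highest of the 10 genes in any stage. The gate genes of this stage differed between the libraries as well, with Retnlg at 9342 CPM in PBS and 16615 CPM in cmExoaCD11b, the mature gene Stfa2l1 at 3053 and 1021 CPM, S100a8 at 26947 and 38328 CPM, and the activation gene Hilpda at 2642 and 1112 CPM. Retnlg and S100a8, which were higher in cmExoaCD11b, were also higher in mature than in mature activated cells of both libraries, as were Mmp8 and Lcn2, and the part of this in the Mmp8 and Lcn2 ratios was not tested. In the other stages Retnlg was likewise higher and Stfa2l1 lower in cmExoaCD11b. Retnlg was at 765 and 1625 CPM in dividing precursors, 9184 and 11682 CPM in non-dividing immature, 22099 and 27645 CPM in mature and 470 and 765 CPM in activated cells. Stfa2l1 was at 2365 and 886 CPM in mature cells. The part of such differences in the ratios of these stages was not tested either. Mmp8 was found in 27.3% of thinned mature cells in PBS and 62.8% in cmExoaCD11b (50.3% and 82.1% before thinning), against 1.80% and 1.77% of thinned T cells. It was the only granule gene past 2-fold of the 8 tested in mature cells (Mpo and Ctsg had too few UMIs), where 5.87% of genes were 2-fold higher and 3.36% lower, and in mature activated cells, where 7.43% were higher and 5.66% lower. The ratio of Mmp8 in mature cells was 2.52 in neutrophils with 0 macrophage and monocyte UMIs. Mmp8 was also higher in cmExoaCD11b in gated macrophages and monocytes, at 78.8 and 184 CPM, and in empty droplets, at 255 and 536 CPM. The former levels lay near the 61.1 and 173 CPM of dividing precursors. T cells had 23.9 and 16.5 CPM and gated B cells 9.27 and 7.58 CPM. The part of free RNA and of macrophages and monocytes in the Mmp8 ratios was not tested.

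Lcn2 was higher in cmExoaCD11b in the activated stages. Its ratio was 1.08 (1.05 to 1.12) in mature cells (0.821 among the barcodes above the ranked cut-off), 1.75 (1.66 to 1.84) in mature activated cells and 2.78 (2.66 to 2.90) in activated cells, where it was at 708 CPM in PBS and 1965 CPM in cmExoaCD11b. In activated cells the median cell had 3.70 Lcn2 UMIs per 10000 in PBS and 7.34 in cmExoaCD11b, and the 95th percentile was 24.0 and 92.2. Lcn2 in T cells was also higher in cmExoaCD11b, with 155 and 244 CPM, a difference smaller than that in activated cells, and the ratio in activated cells with 0 macrophage and monocyte UMIs was 2.76. Erythroid markers (2 genes, none at 0) were also higher, with 3.05 CPM in PBS and 50.4 CPM in cmExoaCD11b in mature activated cells and 7.87 and 70.0 CPM in activated cells. They were higher too where Lcn2 changed little, with 4.99 and 11.4 CPM in dividing precursors (Lcn2 ratio 0.996). Non-dividing immature cells had 24.0 and 42.6 CPM (0.943) and mature cells 53.1 and 69.0 CPM (1.08). Their part in the Lcn2 ratios was not tested. Ngp went the same way in mature activated cells, with a ratio of 1.69 (1.55 to 1.84), and in activated cells, with 1.43 (1.34 to 1.53), and its T-cell ratio was 1.68 (1.50 to 1.89).

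Mmp9 went the opposite way to Lcn2 in activated cells, with 601 CPM in PBS and 291 CPM in cmExoaCD11b, a ratio of 0.485 (0.444 to 0.529). It was also lower in mature cells, at 0.688 (0.637 to 0.743), and mature activated cells, at 0.774 (0.699 to 0.857). Lcn2 (higher) and Mmp9 (lower) were the 2 granule genes past 2-fold in activated cells, where 3.83% of genes were 2-fold higher and 5.22% 2-fold lower. Markers of macrophages and monocytes were also lower there: the 8 genes of that list summed to 186 CPM in activated cells of PBS and 129 CPM in cmExoaCD11b, with none at 0. Over all 5 stages they summed to 136 to 191 CPM in PBS and 59.8 to 129 CPM in cmExoaCD11b. In dividing precursors these markers summed to 136 CPM in PBS and 76.0 CPM in cmExoaCD11b, beside a Mmp9 ratio of 1.34. In non-dividing immature cells they summed to 188 and 76.2 CPM, beside a Mmp9 ratio of 0.909. Macrophages and monocytes themselves held less Mmp9 in cmExoaCD11b, as given below, and their part in these ratios was not tested. In activated cells with 0 UMIs of the list the Mmp9 ratio was 0.602.

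**Figure D5:**
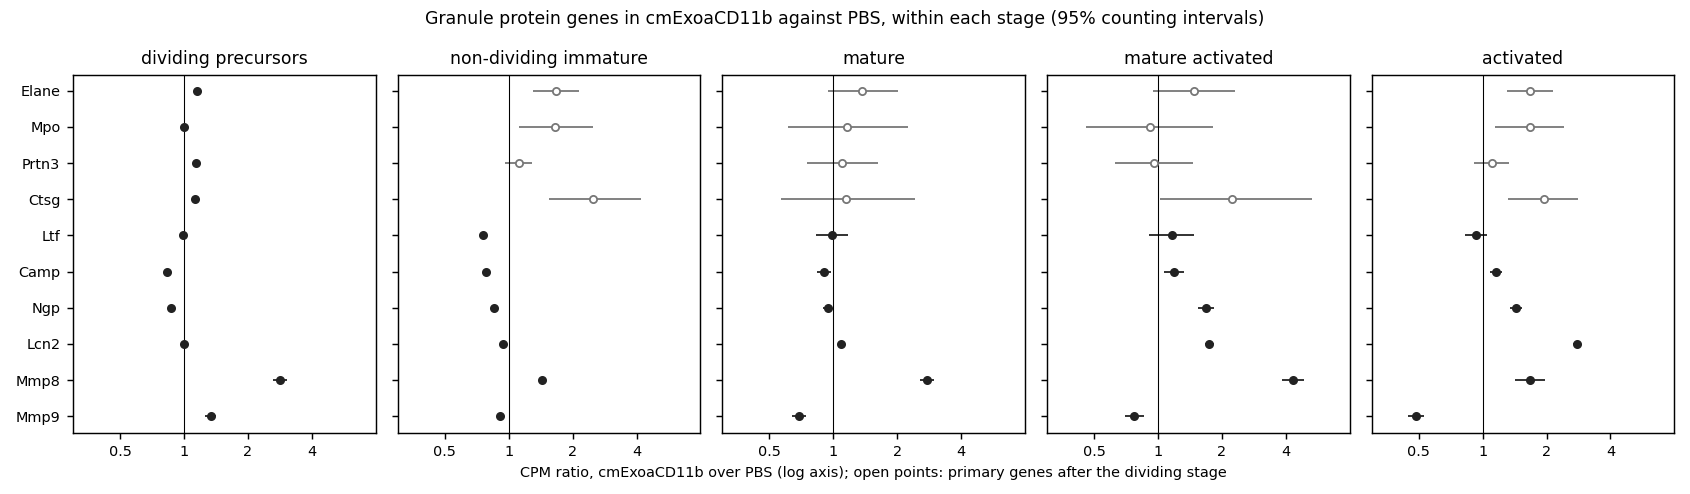
Ratio of cmExoaCD11b over PBS (CPM of the summed UMIs, log axis) for each granule gene within each stage, with exact 95% intervals for counting error only, and open points for primary genes after the dividing stage, most of them near the T-cell level. Mmp8 lies right of 2 in dividing precursors, mature and mature activated cells, Lcn2 right of 2 in activated cells, and Mmp9 left of 1 in all stages after the dividing precursors.

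Cells outside the neutrophil gate also held Mmp9. Macrophages and monocytes, gated by the same 8 genes, had 1796 CPM in PBS and 214 CPM in cmExoaCD11b, and 36.1% of all Mmp9 UMIs in PBS lay outside the neutrophil gate against 4.24% in cmExoaCD11b. The share was 0.636% and 0.557% for Camp and 5.99% and 3.30% for Mmp8. A few cells outside the gate were rich in primary genes: 12 PBS cells and 21 cmExoaCD11b cells with at least 20 primary UMIs held 4.64% and 1.32% of all primary UMIs, and 1 and 8 of them had at least 5 UMIs of mast cell and basophil markers.

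Another 27 genes of granule biology were read beside the 10. Among factors of granulopoiesis, Cebpe, which directs the synthesis of secondary granules, was at 371 CPM in PBS and 355 CPM in cmExoaCD11b in dividing precursors, 163 CPM in PBS and 138 CPM in cmExoaCD11b in non-dividing immature cells and 13.8 CPM in PBS and 12.4 CPM in cmExoaCD11b in mature cells. Gfi1, a repressor needed for granulocyte differentiation, was at 38.9 CPM in PBS and 33.1 CPM in cmExoaCD11b in dividing precursors and 4.32 CPM in PBS and 2.92 CPM in cmExoaCD11b in non-dividing immature cells. Of the 5 factors 3 were at least 2-fold higher in dividing precursors than in non-dividing immature cells (Cebpa, Cebpe and Gfi1), whereas Spi1 and Cebpd passed in neither direction, beside 28.6% of all genes that were higher.

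Of 15 tested genes of other granule and granule membrane proteins, 1 was at least 2-fold higher in dividing precursors than in non-dividing immature cells and 6 were lower, beside 28.6% and 5.43% of all genes. The higher was Prss57, a serine protease of primary granules, at 116 CPM in PBS and 123 CPM in cmExoaCD11b against 7.36 CPM in PBS and 5.49 CPM in cmExoaCD11b. The lower ones were Olfm4, Slc11a1, Adam8, Fpr1, Fpr2 and Padi4, of which the formyl peptide receptor Fpr1 was at 21.7 CPM in PBS and 34.0 CPM in cmExoaCD11b in dividing precursors and 188 CPM in PBS and 222 CPM in cmExoaCD11b in non-dividing immature cells. From non-dividing immature to mature cells 5 were lower in the mature cells, including lysozyme (Lyz2), at 13009.6 CPM in PBS and 9316 CPM in cmExoaCD11b against 1559.5 CPM in PBS and 1013 CPM in cmExoaCD11b, and the oxidase subunits Cybb and Cyba, and 1 was higher in the mature cells (Slc11a1, a metal transporter), beside 13.2% and 6.43% of all genes. Bpi was at or under 1 UMI in each stage and was not tested. Among 6 genes of processing, storage and inhibition, Serpinb1a, an inhibitor of elastase, was at 1432 CPM in PBS and 1567 CPM in cmExoaCD11b in dividing precursors and 56.1 CPM in PBS and 106 CPM in cmExoaCD11b in mature cells. Srgn, the proteoglycan that holds the proteases in the granule, went the opposite way, with 2319.7 CPM in PBS and 2546 CPM in cmExoaCD11b in dividing precursors and 10062 CPM in PBS and 10284 CPM in cmExoaCD11b in mature cells.

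Between the treatments, Timp1, an inhibitor of Mmp9, was the 1 gene of the 26 tested past 2-fold over all gated neutrophils, at 5.70 CPM in PBS and 2.03 CPM in cmExoaCD11b, a ratio of 0.356 (0.275 to 0.457). It was lower in dividing precursors (10.1 CPM in PBS and 0.685 CPM in cmExoaCD11b), where the 5 fibroblast and endothelial markers, 1 of them at 0, summed to 51.6 CPM in PBS and 11.5 CPM in cmExoaCD11b. Timp1 was also lower in non-dividing immature cells (5.08 and 1.15 CPM), a ratio of 0.227 (0.111 to 0.432). There the same markers went the opposite way, with 12.4 CPM in PBS and 41.4 CPM in cmExoaCD11b. The part of fibroblasts and endothelial cells was not tested. In mature activated cells Timp1 went the other way, with 1 UMI in PBS and 39 UMIs in cmExoaCD11b, a ratio of 39.7 (6.72 to 1608) on fewer than the 50 UMIs required for a count. Olfm4, a secondary granule protein found in a subset of neutrophils, was at 13.7 CPM in PBS and 70.0 CPM in cmExoaCD11b in dividing precursors, a ratio of 5.12 (4.36 to 6.03), and Fpr2 had a ratio of 2.46 (2.25 to 2.70) there. Pglyrp1, a peptidoglycan-binding granule protein, had ratios of 2.20 (1.99 to 2.43) in mature activated and 2.32 (2.04 to 2.64) in activated cells, and Padi4, which citrullinates histones, had 3.22 (2.32 to 4.56) in mature activated cells. In activated cells the median ratio was 1.54 over the 10 granule genes, 1.16 over 14 genes of other granule proteins and 0.917 over all genes. Of the 10, Elane, Mpo and Ctsg were at low levels there, at most 50.7 CPM. Camp and Ngp, at 567 and 673 CPM in cmExoaCD11b, had 399.5 and 439 CPM in T cells of that library. In T cells all of the 10 but Mmp8 (0.689) and Mmp9 (0.779) had ratios above 1, from 1.17 for Ltf to 1.86 for Elane. In gated B cells the primary sum had a ratio of 1.03 and the secondary sum of 0.932. The part of free RNA in the median of 1.54 was not tested.

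Genes with the most similar pattern were ranked by Pearson correlation of log2(CPM + 1) over the 10 stage and library sums, among 12103 genes that were in no gate. Those nearest to the primary sum were Dut (0.998), Stmn1 (0.997), Cenph, Bora and Hells. All of these were highest in dividing precursors of both libraries, and division defined that stage. Nearest to the secondary sum were Cyba (0.993), Ppp1r42, Adpgk, Mgst2 and Dstn. Nearest to Mmp9 were Tmem120a (0.943), Apobr, Ndst1, Apoc2 and Pira2, and nearest to Mmp8 were Prr13 (0.968), Bmx, Tmcc1, Lcp1 and Baz2a. The 10 sums come from 2 libraries and are not independent.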

How the data were processed

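The authors deposited unfiltered UMI counts per gene and droplet (10x Genomics 3′ kit v3.1), whose headers name Cell Ranger 7.1.0, whereas the methods name 3.0.2. The genome build is not given in the sources used here. Droplets were kept as cells above a ranked-UMI cut-off (the 99th percentile of the top 3000 barcodes, divided by 10) or by a Monte Carlo test against empty droplets (10000 simulations, false discovery rate 0.01, at least 500 UMIs), and barcodes under 200 genes or over 20% mitochondrial UMIs were dropped. The automatic Scrublet threshold (scanpy 1.11.5) marked 0 doublets, so the highest scores were removed at 0.8% per 1000 cells. Neutrophils had at least 3 UMIs of 8 lineage genes, and UMIs of 10 lineage genes at least 5 times those of 40 markers of other cells. Gate thresholds were set after the gate genes had been seen. Cells of a stage were summed to CPM, with exact Poisson, conditional and binomial intervals (scipy 1.17.1). The ratio intervals were checked on simulated Poisson counts, the model they assume. That check cannot show how they fare with UMIs concentrated in few cells. A gene was counted as higher or lower past 2-fold, among genes with at least 50 UMIs in the compared cells, and stage-to-stage counts required this in both libraries. Samples were grouped by the treatment label. The rule for named genes was the 10 granule genes, the 27 listed pathway genes, and the 5 genes most alike per class. Members and lists were chosen with earlier results of these data known. Each library is a single sample, so no p-value was computed. Another allele of the tumor line and 1 gate gene are not reported here.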

Additional observations from a re-analysis of the deposited data

How the results depend on the processing

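Results were recomputed with barcodes above the ranked-UMI cut-off alone, at most 10% mitochondrial UMIs, doublets kept, doubled lineage or stage thresholds, no exclusion by markers of other cell types, cells thinned to 1000 UMIs, median-of-ratios scaling, subtraction of free RNA, and the mean over cells. Thinning after gating, and neutrophils with 0 macrophage and monocyte UMIs, were added after the data had been seen. The latter cut is met less easily by deep cells. Results named below left their counting interval, and the cause was not tested unless the setting itself removes cells or genes.

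The ratio of cmExoaCD11b over PBS for the primary genes in all gated neutrophils, 1.46 as reported, was 1.29 with the ranked cut-off, 1.50 with doublets kept, 1.43 with the lineage threshold doubled, 1.51 with no exclusion, 1.42 with thinning before gating, 1.33 with median scaling, 1.56 with the mean over cells, 1.57 with thinning after gating and 1.23 with 0 macrophage UMIs. The same ratio for the secondary genes, 1.08 as reported, was 0.924 with the ranked cut-off, 1.07 with doublets kept, 1.06 with the lineage threshold doubled, 1.15 with no exclusion, 1.62 with thinning before gating, 0.981 with median scaling, 1.07 with free RNA subtracted, 1.53 with the mean over cells, 1.53 with thinning after gating, 1.10 with 0 macrophage UMIs and 1.07 with Mmp8 left out. The same ratio for Mmp9, 0.741 as reported, was 0.771 with the ranked cut-off, 0.721 with doublets kept, 0.67 with no exclusion, 0.673 with median scaling, 0.754 with thinning after gating and 0.841 with 0 macrophage UMIs. Weighted ratios used the PBS share of UMIs in each stage, or the share of cells for the mean over cells. The weighted primary ratio, 1.11 as reported, was 1.09 with doublets kept, 1.09 with no exclusion, 1.13 with stage thresholds doubled, 1.01 with median scaling, 1.10 with free RNA subtracted, 1.02 with the mean over cells, 1.02 with thinning after gating and 0.923 with 0 macrophage UMIs. The weighted secondary ratio, 0.916 as reported, was 0.884 with the ranked cut-off, 0.918 with doublets kept, 0.911 with the lineage threshold doubled, 0.943 with no exclusion, 0.935 with stage thresholds doubled, 0.832 with median scaling, 0.909 with free RNA subtracted, 1.03 with the mean over cells, 1.02 with thinning after gating and 0.944 with 0 macrophage UMIs. The weighted Mmp9 ratio, 0.745 as reported, was 0.836 with the ranked cut-off, 0.647 with no exclusion, 0.677 with median scaling, 0.631 with the mean over cells, 0.652 with thinning after gating and 0.856 with 0 macrophage UMIs. The primary genes in dividing precursors over non-dividing immature cells, 135 as reported, was 118 with doublets kept, 114 with no exclusion, 118 with stage thresholds doubled, 98.0 with median scaling, 80.5 with the mean over cells, 71.9 with thinning after gating and 159 with 0 macrophage UMIs. The secondary genes in non-dividing immature over mature cells, 10.1 as reported, was 6.13 with the ranked cut-off, 9.77 with doublets kept, 9.55 with no exclusion, 7.55 with stage thresholds doubled, 9.35 with median scaling, 11.1 with free RNA subtracted, 11.5 with the mean over cells, 11.5 with thinning after gating, 11.7 with 0 macrophage UMIs and 11.4 with Mmp8 left out. Mmp9 in mature over non-dividing immature cells, 0.757 as reported, was 0.951 with the ranked cut-off, 0.795 with no exclusion, 0.997 with stage thresholds doubled, 0.814 with median scaling, 0.688 with the mean over cells, 0.713 with thinning after gating and 0.694 with 0 macrophage UMIs. The share ratio of dividing precursors, 1.80 as reported, was 1.24 with the ranked cut-off. The share of genes past 2-fold in gated neutrophils was 6.91% with at least 50 UMIs and 12.4% with at least 10.

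Of the ratios of cmExoaCD11b over PBS for single genes under these settings, 400 stayed within the counting interval, 251 moved beyond it with no change of a direction that its interval had shown, and 21 changed direction. The direction changed for Ltf in all gated neutrophils (1.06 as reported) with the ranked cut-off (0.92) and median scaling (0.967), Camp in all gated neutrophils (1.02 as reported) with the ranked cut-off (0.877), the lineage threshold doubled (0.999) and median scaling (0.927) and Ngp in all gated neutrophils (1.07 as reported) with the ranked cut-off (0.915) and median scaling (0.97). It also changed for Lcn2 in mature (1.08 as reported) with the ranked cut-off (0.821) and thinning before gating (0.956), Elane in non-dividing immature (1.67 as reported) with stage thresholds doubled (0.954) and Camp in mature (0.902 as reported) with stage thresholds doubled (1.05) and 0 macrophage UMIs (1.24). The direction changed for Mmp9 in non-dividing immature (0.909 as reported) with stage thresholds doubled (1.01), Ctsg in dividing precursors (1.12 as reported) with the mean over cells (0.972), thinning after gating (0.949) and 0 macrophage UMIs (0.722) and Ngp in mature (0.941 as reported) with the mean over cells (1.01) and 0 macrophage UMIs (1.56). It also changed for Ctsg in non-dividing immature (2.50 as reported) with thinning after gating (0.799), Prtn3 in dividing precursors (1.14 as reported) with 0 macrophage UMIs (0.937) and Ctsg in all gated neutrophils (1.49 as reported) with 0 macrophage UMIs (0.974). 

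Thinning before gating left 0 dividing precursors, and so gave no value for the stages that need them. Subtraction of free RNA gave no ratio of dividing precursors over non-dividing immature cells for the primary genes, because no level was left in cmExoaCD11b. No paired analysis was possible because each pool held other mice and the results come from no test. Intervals cover counting error, and the spread between mice is unknown with 1 pool per treatment. Free RNA limits the primary genes after the dividing stage.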
